A study of Homo sapiens with 8 samples.

Results

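The genes examined are 9 genes of human chromosome band 14q32: the serpin genes SERPINA1, SERPINA3, SERPINA4, SERPINA5, SERPINA6, SERPINA10 and SERPINA11, and ITPK1 and DDX24, which lie on the centromeric side of the cluster. They were chosen by symbol, and for large differences between replicates, from a table of 17561 genes, and all 9 were found. No numeric limit on the spread was set. The spread and the contrast below are therefore what chose the genes, so their values are given as a description, with no p-value for any of them. SERPINA1 did not have a large spread: the SD of its differences stood at percentile 48.7 of all genes, and it was kept because its symbol was listed.

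Transcripts were measured by RNA-seq in HepG2, a hepatic cell line with many hepatocyte transcripts. The cells were taken 48 h after transfection with pGRHL2, which encodes the epithelial transcription factor GRHL2, or with the empty vector pcDNA3. There were 4 libraries per plasmid, described by the study as independent biological replicates and numbered 1 to 4. In pGRHL2 an EEF1A1 promoter drives the GRHL2 cDNA, which bears a flag tag, together with EGFP, so the plasmids differed in more than the GRHL2 sequence. Both groups were grown with serum, insulin and dexamethasone, a synthetic glucocorticoid, and results from 1 cell line and transient transfection cover no other liver cells. The table holds log2 values, 1 for every gene in every library. They are scaled to transcript length, and comparison of levels between genes is approximate. Depth was unknown, since read counts were not analysed here. The hepatocyte markers ALB, APOA1 and TTR had mean log2 levels of 16.88, 11.86 and 9.83, and AFP, a fetal liver and hepatoma protein, stood at 17.11. Of 16 markers of other cell types, PTPRC, CD68, COL1A2, COL3A1, DCN and CDH5, which mark immune cells, fibroblasts and endothelium, were not listed in the table. The other 10 were, among them COL1A1 of fibroblasts at a mean log2 level of 5.82, PECAM1 of endothelium at 5.43, CD14 of monocytes at 4.02 and KRT19 of bile duct epithelium at 13.90. GRHL2 was higher in pGRHL2 libraries by 9.48 ± 0.57 on the log2 scale (SD of 4 pair differences, limma adjusted p 4.84e-08), and the groups were as labelled.

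Serpins are a superfamily whose inhibitory members trap a protease by presenting a reactive loop as bait and changing shape once it is cleaved. Others have lost inhibition and carry hormones. The SERPINA genes of 14q32 arose by duplication and several are transcribed mainly in hepatocytes, which secrete their products into plasma. Grainyhead-like factors such as GRHL2 are known for the transcription of epithelial genes.

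Promoter sequences were searched because the plasmid encodes a Grainyhead-like factor. The Grainyhead motif AACCNGTT, read on both strands, was found in 0 of the 9 genes, among 12 promoters listed for them, and in 1.73% of 35116 promoters of the same length in RefSeq (GRCh38.p14). The absence of a match covers only these letters in the window of 250 bases before to 50 bases after each start, and nothing is read from it about the factor.

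On hg38, ITPK1 lies on chromosome 14 from 92936914 to 93116320 and DDX24 from 94048287 to 94081202. SERPINA10 (94280460 to 94293268), SERPINA6 (94304248 to 94323389), SERPINA1 (94376747 to 94390693) and SERPINA11 (94442464 to 94452800) follow, all on the minus strand (GENCODE release 44). SERPINA4 (94561442 to 94569913), SERPINA5 (94561442 to 94593118) and SERPINA3 (94612384 to 94624055) lie beyond them on the plus strand. Reads were counted without strand. SERPINA3 shares 31.7% of its exon bases with ENSG00000273259, DDX24 shares 7.49% with OTUB2, SERPINA5 shares 3.52% with ENSG00000273259 and SERPINA4, and SERPINA4 shares 2.67% with SERPINA5, so reads over those bases cannot be assigned to 1 gene.

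When the pGRHL2 and pcDNA3 libraries of one number were averaged, all 4 numbers gave an identical mean in every one of the 17561 genes. The values of a pair therefore mirror each other around the gene's mean. Which library of a pair departed cannot be told, and variation between pairs is not in the table. Each gene has 4 pair differences (pGRHL2 minus pcDNA3, log2), and the 2 groups do not overlap exactly when all 4 have the same sign.

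The level of the serpin transcripts spanned a wide range. SERPINA1, which encodes alpha-1-antitrypsin, the main plasma inhibitor of neutrophil elastase, was highest, with a mean log2 level of 14.51 (percentile 99.9 of all genes). SERPINA5, the protein C inhibitor, followed at 11.61. DDX24 stood at 7.34, SERPINA11 at 7.04, SERPINA4 at 6.62, ITPK1 at 6.57, SERPINA3 at 6.05, SERPINA6 at 5.14 and SERPINA10 at 2.68. The library ranges of neighbours in this order overlapped for DDX24 and SERPINA11, SERPINA11 and SERPINA4, SERPINA4 and ITPK1, and ITPK1 and SERPINA3. They did not overlap for the other neighbours, but these ranges leave out the variation between pairs. ITPK1, DDX24, SERPINA10, SERPINA6 and SERPINA1 have a copy on an alternate contig of hg38, described below. The authors' alignment quality filter removes reads that fit several places, and its part in these levels was not tested.

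**Figure D1:**
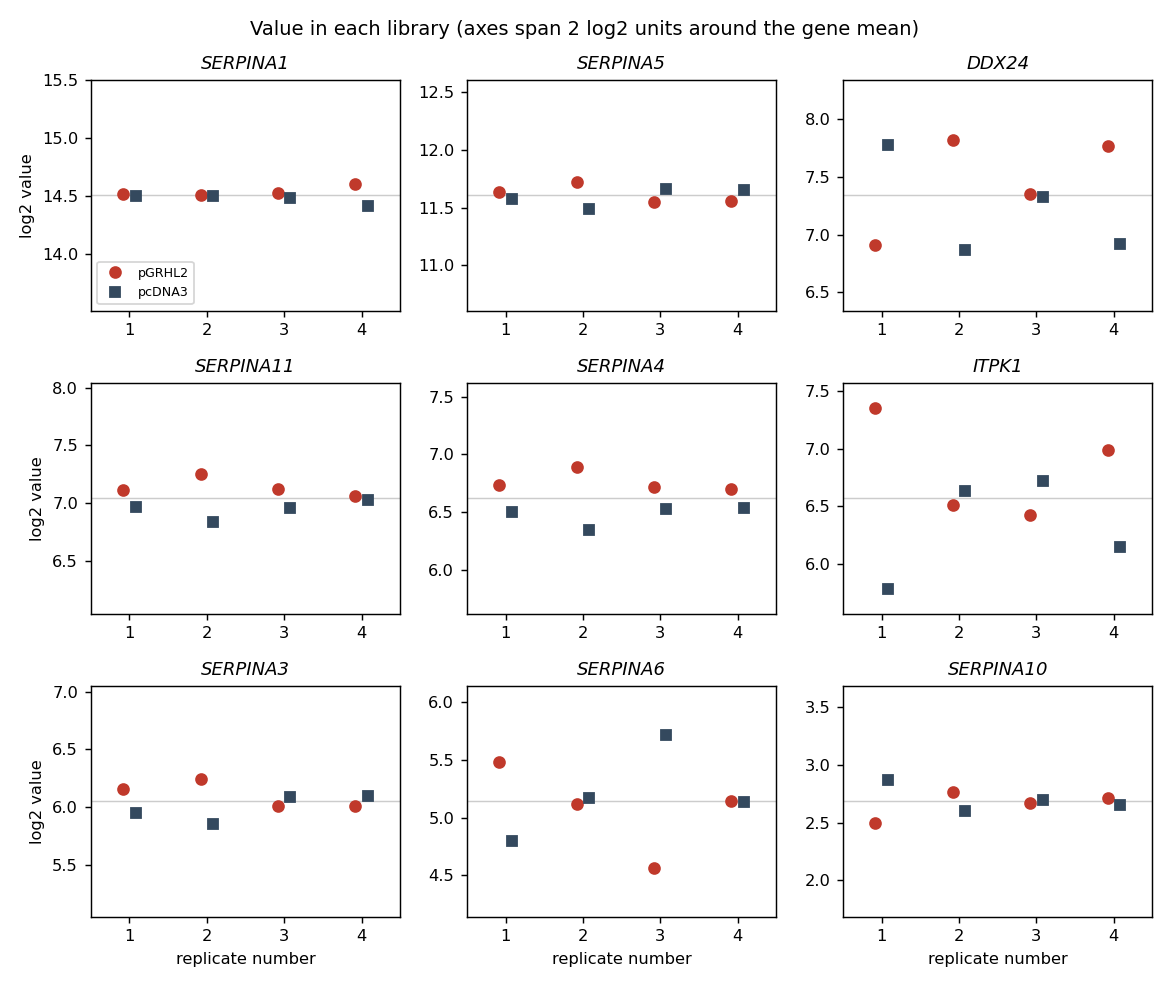
Log2 value (vertical axis) of each gene in the 4 pGRHL2 (circles) and 4 pcDNA3 (squares) libraries by replicate number (horizontal axis), with the gene mean as a line. ITPK1, DDX24 and SERPINA6 change order between pairs, whereas the pGRHL2 value is above the pcDNA3 value in every pair for SERPINA1, SERPINA4 and SERPINA11.

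Among the protease inhibitors, SERPINA4 encodes kallistatin, an inhibitor of tissue kallikrein. Its log2 values were 6.74, 6.89, 6.71 and 6.70 in pGRHL2 libraries 1 to 4 and 6.50, 6.35, 6.52 and 6.54 in pcDNA3 libraries 1 to 4. The pGRHL2 values were all above the pcDNA3 values, and the mean difference was 0.28 ± 0.18 (SD, n = 4 pairs), or 1.22-fold.

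SERPINA11 encodes a serpin whose function is little known. Its log2 values were 7.12, 7.25, 7.13 and 7.06 with pGRHL2 and 6.97, 6.83, 6.96 and 7.03 with pcDNA3. The groups did not overlap, although libraries 4 were close, and the mean difference was 0.19 ± 0.16 (SD, n = 4 pairs), or 0.12 without pair 2.

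For SERPINA1 the values were 14.51, 14.51, 14.53 and 14.60 with pGRHL2 and 14.50, 14.50, 14.48 and 14.41 with pcDNA3. These groups did not overlap either, but the pairs differed by 0.02, 0.01, 0.04 and 0.19, so pair 4 gave most of the mean difference of 0.06 ± 0.08 (SD, n = 4 pairs). Without pair 4 the mean difference of SERPINA1 was 0.02.

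Thus 3 of the 9 genes had groups that did not overlap, all higher with pGRHL2, where 24.0% of all genes had such groups (13.4% higher and 10.5% lower). Limma, fitted with the pairs as a block, called 0 of the 9 at an adjusted p under 0.05, where it called 2.19% of all genes (1.69% higher and 0.501% lower). At an unadjusted p under 0.05 were 2 of the 9 and 16.0% of all genes. Nothing is read from these counts, since the genes were chosen on this contrast.

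SERPINA5 and SERPINA3 changed sign between pairs. SERPINA5 had log2 values of 11.64, 11.72, 11.55 and 11.56 with pGRHL2 and 11.58, 11.49, 11.66 and 11.66 with pcDNA3. The pGRHL2 value was the higher in pairs 1 and 2 and the lower in pairs 3 and 4, and the mean difference of 0.02 ± 0.16 (SD, n = 4 pairs) turned to -0.05 without pair 2.

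SERPINA3 encodes alpha-1-antichymotrypsin, an acute phase protein that inhibits cathepsin G. Its values were 6.15, 6.25, 6.01 and 6.01 with pGRHL2 and 5.95, 5.85, 6.09 and 6.09 with pcDNA3. It had the same order within pairs as SERPINA5, with a mean difference of 0.11 ± 0.24 (SD, n = 4 pairs) that fell to 0.01 without pair 2.

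SERPINA10, the protein Z-dependent protease inhibitor of factor Xa, was the lowest of the serpins. Its values were 2.50, 2.77, 2.67 and 2.72 with pGRHL2 and 2.87, 2.60, 2.70 and 2.65 with pcDNA3. The groups overlapped, and pair 1 was the widest, at -0.38. The mean difference of -0.04 ± 0.24 (SD, n = 4 pairs) turned to 0.07 without that pair.

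SERPINA6 encodes corticosteroid-binding globulin, a carrier of cortisol that does not inhibit proteases. Its values were 5.48, 5.11, 4.56 and 5.14 with pGRHL2 and 4.80, 5.17, 5.72 and 5.14 with pcDNA3. The pairs moved in opposite directions, with a difference of 0.68 in pair 1 and -1.15 in pair 3, while pairs 2 and 4 differed by -0.05 and 0.01. The mean of -0.13 ± 0.76 (SD, n = 4 pairs) turned to 0.21 without pair 3.

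ITPK1 is an inositol phosphate kinase of the route to the highly phosphorylated inositols. Its values were 7.35, 6.51, 6.42 and 6.99 with pGRHL2 and 5.79, 6.63, 6.72 and 6.15 with pcDNA3. The pGRHL2 library was the higher by 1.57 in pair 1 and 0.84 in pair 4, and lower in pairs 2 and 3. The mean of 0.50 ± 0.87 (SD, n = 4 pairs) dropped to 0.14 without pair 1.

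DDX24 is a DEAD-box RNA helicase. Its values were 6.91, 7.82, 7.35 and 7.77 with pGRHL2 and 7.78, 6.87, 7.33 and 6.92 with pcDNA3. The difference was -0.87 in pair 1, 0.95 in pair 2, 0.02 in pair 3 and 0.85 in pair 4, so pair 1, where ITPK1 had its largest positive difference, was the pair in which DDX24 was lower with pGRHL2. The mean of 0.24 ± 0.85 (SD, n = 4 pairs) was 0.00 without pair 2, 0.04 without pair 4 and 0.61 without pair 1.

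**Figure D2:**
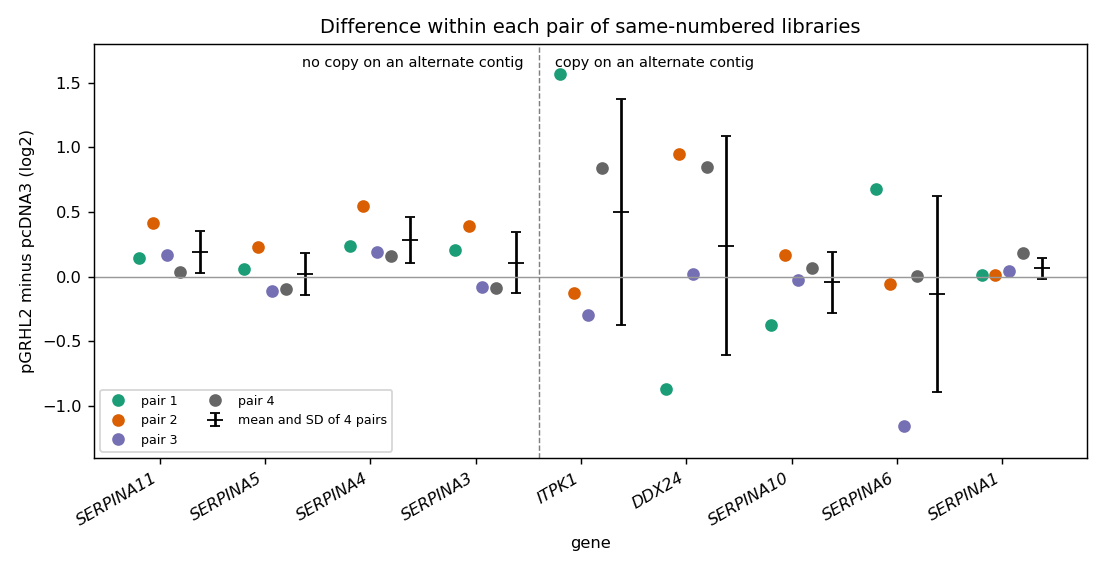
Difference between pGRHL2 and pcDNA3 (log2, vertical axis) in each of the 4 pairs, with the mean and SD as bars, for genes without (left) and with (right) a copy on an alternate contig of hg38. The pairs of ITPK1, DDX24 and SERPINA6 reach from -1.15 to 1.57, and the 4 genes on the left stay between -0.11 and 0.54.

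The 9 genes differed among themselves in spread. The SD of the pair differences ranked ITPK1 5th, DDX24 7th and SERPINA6 8th of 17561 genes, whereas the other 6 had SDs from 0.08 to 0.24. An SD above 0.5 was found for these 3 genes and for 0.211% of all genes. The table's genes from ITPK1 to SERPINA1 (92936914 to 94390693) are also represented on the alternate contig chr14_KI270847v1_alt of hg38, which carries another sequence version of the region. The longest transcripts of ITPK1, DDX24, SERPINA10 and SERPINA6 aligned to it without a differing base, and that of SERPINA1 with 6 differing bases of 3532. SERPINA11, SERPINA4, SERPINA5 and SERPINA3 have no copy on an alternate contig. The median SD was 0.76 for the 5 genes with a copy and 0.17 for the 4 without. Nothing is read from this split, since the genes were chosen for their spread. Those with a copy had a median level of 6.57 and those without 6.83.

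The same contig carries 9 further genes of the table: MOAP1, GON7, UBR7, BTBD7, ASB2, OTUB2, IFI27L1, IFI27 and PPP4R4. Their SDs ran from 0.02 to 0.33, with a median of 0.116, and 0 of 9 exceeded 0.5. An SD above 0.2 was found for 3 of the 9 and for 8.17% of all genes. BTBD7 and UBR7 had the largest SDs, 0.33 and 0.32. Within 1 Mb of the span from ITPK1 to SERPINA1, 13 further genes have no copy, SERPINA11, SERPINA4, SERPINA5 and SERPINA3 aside. These 13 had SDs of at most 0.174, with a median of 0.103. Their median level was 8.11, against 3.12 for the 9 genes, and rlog values of genes with few reads are shrunk toward their mean. Levels are scaled to transcript length and are not read counts, and the part of level in these SDs was not tested.

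Among all other genes of the table, 23 of 321 with a copy on an alternate contig (7.17%) and 11 of 17207 without (0.0639%) had an SD above 0.5. The 9 genes with the largest SD of the whole table, FRG1, YWHAE, CES1, YTHDC1, ITPK1, CUTA, DDX24, SERPINA6 and DDAH2, all have such a copy. U2AF1, which ranked 10th with an SD of 0.72, and PEG3, 14th with 0.70, have none on an alternate contig. Copies elsewhere in the genome were not sought for any gene. The median level of the 321 genes was 3.42 and that of the 17207 was 6.80. The authors kept alignments above a minimum quality, which removes reads that fit several places. Whether their genome index held the alternate contigs is not given in the sources used here, and the part of these copies in the spread was not tested. SERPINA1 and SERPINA10 have a copy and SDs of 0.08 and 0.24, at percentiles 48.7 and 95.8 of all genes.

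**Figure D3:**
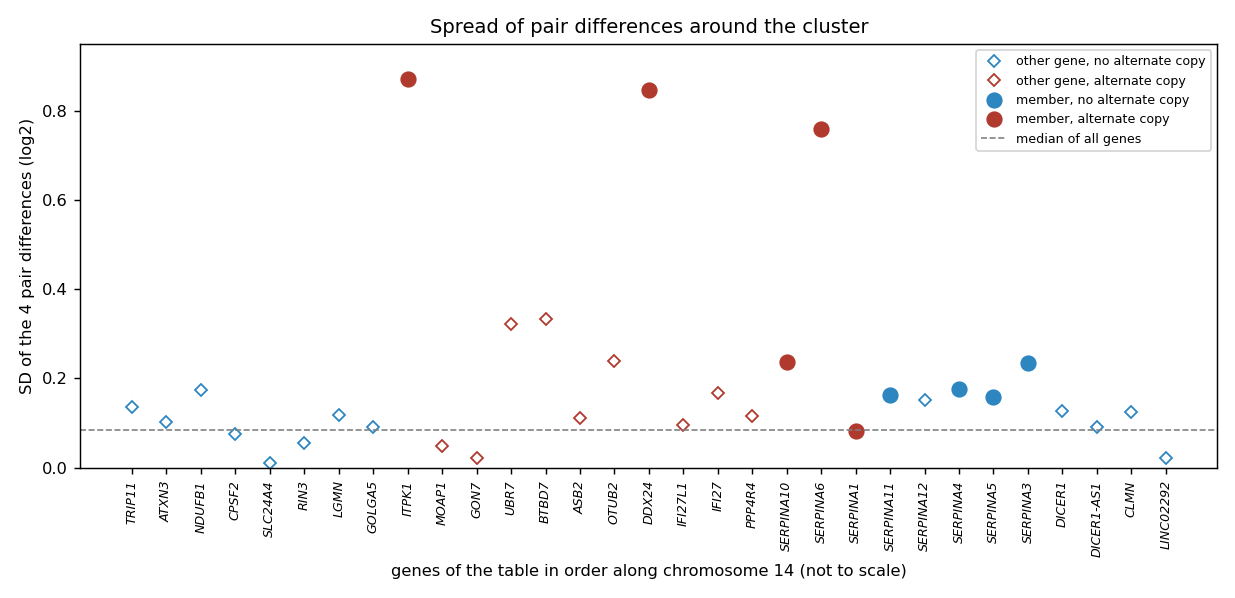
SD of the 4 pair differences (log2, vertical axis) for the table's genes within 1 Mb of the span from ITPK1 to SERPINA1, in chromosomal order and not to scale. ITPK1, DDX24 and SERPINA6 lie between 0.76 and 0.87, and the other genes lie at 0.33 or less.

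The examined serpin genes without a copy shared their highest pair. Pair 2 gave the highest difference in SERPINA11, SERPINA4, SERPINA5 and SERPINA3, with a median of 0.41, whereas the medians of pairs 1, 3 and 4 were 0.18, 0.05 and -0.03. SERPINA12, a serpin gene between SERPINA11 and SERPINA4 that was not among the 9, has no copy either. Its mean log2 level was 3.48, and it differed by -0.08, 0.19, 0.02 and -0.16 in pairs 1 to 4. Pair 2 was highest in 6 of all 9 genes, DDX24 and SERPINA10 of those with a copy included, and in 25.8% of all genes of the table. Pairs 1, 3 and 4 were highest in 20.7%, 26.5% and 27.0% of all genes. Plasma protein genes of hepatocytes, a list of 20 including ALB, FGA, FGB, FGG and HP, had their highest difference in pair 2 in 18 of 20 and a median difference of 0.30 in that pair, against -0.01, -0.04 and -0.08 in pairs 1, 3 and 4. The fibrinogen genes FGA, FGB and FGG, named outside the rule given below, differed by 0.89, 0.77 and 0.84 in pair 2. In the lists described below, pair 2 was highest in 10 of 21 secretory pathway genes, 9 of 19 other serpins and 5 of 11 target proteases. It was highest in 7 of 17 liver regulators, 4 of 10 markers of other cell types and 7 of 30 flanking genes. These genes come from the same 8 libraries, and the source of the difference in pair 2 was not tested.

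**Figure D4:**
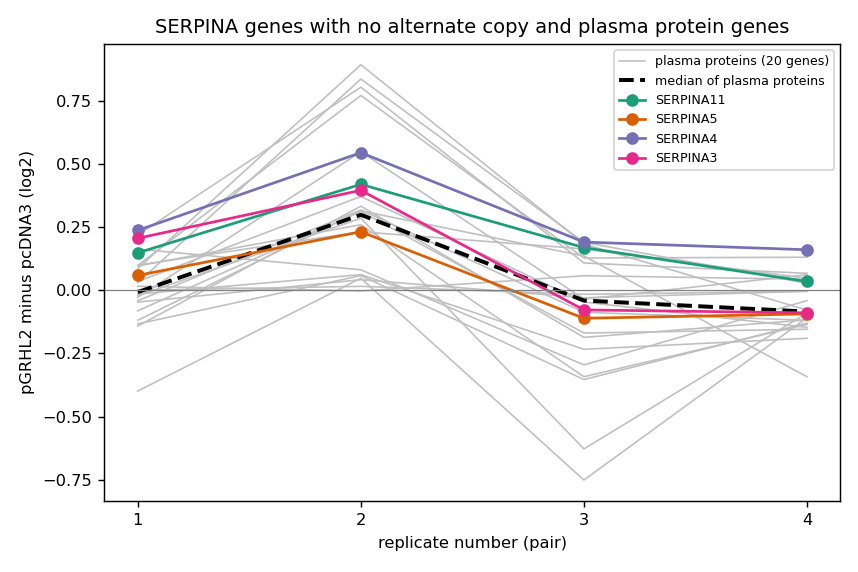
Difference between pGRHL2 and pcDNA3 (log2, vertical axis) by pair (horizontal axis) for SERPINA11, SERPINA5, SERPINA4 and SERPINA3 (coloured), 20 plasma protein genes (grey) and their median (dashed). The median of the plasma protein genes is 0.30 in pair 2 and between -0.08 and -0.01 in the other pairs.

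The genes most like the serpins in this pattern were sought over all 17552 other genes by the root mean square distance of the 4 pair differences from the median of the 6 SERPINA genes with a mean level of at least 5. The nearest included CRIP2 (0.026), GPX2 (0.030), TPRN (0.031) and CYBA (0.034), against a median distance of 0.195. AGT, which encodes angiotensinogen, itself a non-inhibitory serpin, was 6th at a distance of 0.035 and was singled out after its values were seen, whereas SERPINA7 ranked 1184.

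Other serpins were compared as a family. Of 30 listed, 19 were in the table, and limma called 0 of them at an adjusted p under 0.05 and 3 at an unadjusted p under 0.05, with a median difference of 0.02 beside 0.00 over all genes. The shares over all genes, for this list and those below, were 2.19% at the adjusted limit and 16.0% at the unadjusted limit. SERPINA7, the thyroxine-binding globulin gene on the X chromosome, had pair differences of 0.21, 0.50, 0.13 and 0.11 and a mean of 0.23 ± 0.18 (limma adjusted p 0.161), or 0.15 without pair 2. SERPINB9, an intracellular inhibitor of granzyme B, differed by 0.16 ± 0.11 (limma adjusted p 0.189).

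Proteases that serpins act on, and factors activated with them, were described as a group of 11 genes in the table of 17 listed, of which limma called 0, and 1 passed at an unadjusted p under 0.05. F10, coagulation factor X, whose active form SERPINA10 inhibits, differed by 0.25, 0.20, 0.19 and 0.16 in the 4 pairs, a mean of 0.20 ± 0.04 (limma adjusted p 0.108). PROC, protein C, whose active form SERPINA5 inhibits, differed by 0.09 ± 0.07 (limma adjusted p 0.453), or 0.055 without pair 2.

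Regulators of liver transcription, including HNF4A and the CEBP and FOXA genes, were all in the table (17 of 17). Limma called 0 and 2 passed at an unadjusted p under 0.05, and their median difference was -0.07. NR3C1, the glucocorticoid receptor, was lower with pGRHL2 in 4 of 4 pairs, by a mean of -0.22 ± 0.06 (limma adjusted p 0.0900).

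Genes of the secretory pathway, which fold the serpins and clear misfolded ones, gave 0 limma calls and 0 at an unadjusted p under 0.05 among 21 in the table of 22 listed. EDEM1 and ERLEC1, both of the pathway that degrades misfolded glycoproteins, had the largest differences, 0.11 ± 0.07 and 0.11 ± 0.10 (limma adjusted p 0.371 and 0.444). Of the plasma protein genes limma called 0 of 20, with 4 at an unadjusted p under 0.05. ORM1 and HP, acute phase proteins, had the largest differences, -0.30 ± 0.35 and 0.30 ± 0.34 (limma adjusted p 0.224 and 0.241). ORM1 stood at -0.15 without pair 3 and HP at 0.13 without pair 2.

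Of 43 listed genes that flank the serpins on 14q32, 30 were in the table, and limma called 0, with 4 at an unadjusted p under 0.05 and a median difference of -0.01. UBR7, a ubiquitin ligase gene that shares 14.6% of its exon bases with another gene and has an alternate copy, differed by 0.77, 0.04, 0.34 and 0.64 in the 4 pairs, a mean of 0.45 ± 0.32 (limma adjusted p 0.0633). ATXN3, a deubiquitinase, differed by -0.16 ± 0.10 (limma adjusted p 0.232). The nearest neighbours on that list, GOLGA5, MOAP1, OTUB2, IFI27L1, PPP4R4 and DICER1, differed by -0.10 to -0.02.

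Markers of other cell types gave 10 genes in the table of 16 listed and 0 limma calls, with 2 at an unadjusted p under 0.05. COL1A1 and KRT7 had the largest differences, 0.20 ± 0.10 and 0.19 ± 0.12 (limma adjusted p 0.0838 and 0.0970). A count of 0 calls does not show that these genes were unaffected, since 4 pairs leave little power. Fewer cells that express a gene and less RNA per cell cannot be told apart in bulk libraries.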

How the data were processed

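Per the labels and the methods of the study, the authors sequenced mRNA libraries (paired-end, 150 bp) and mapped the reads to hg38 with HISAT2 (2.2.1). Reads over exons were counted with HTSeq (0.9.1) without strand at a minimum alignment quality of 10. The authors applied the rlog transformation of DESeq2 (1.40.2) and scaled it by transcript length (versions from the submitters' processing notes; the methods give others). The deposited values are on a log2 scale, although named as FPKM: 3.71% were below 0. In the table, 1 value lost a stray character, and 0 columns came from outside the series.

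Replicate numbers from the labels pair the libraries, since the pair means are identical for 17561 of 17561 genes, which makes a correlation check void. Limma 3.58.1 (R 4.3.3; lmFit, eBayes with trend, Benjamini-Hochberg, 0.05) was fitted with the replicate block and tested on simulated data. It missed nearly all changes of several times a gene's SD, after which larger changes were added to the simulation and were mostly recovered. Symbols were matched to GENCODE release 44, and transcripts were aligned to alternate contigs with minimap2 2.31 (identity of at least 98% over at least 50%). The genes and gene lists were chosen with earlier results of these data known. Genes named were those examined, the called genes and 2 largest differences of each list, the nearest flanking genes, the 5 genes most alike and GRHL2, and 2 of these and a second promoter motif are not reported here.

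Alternatives were no block, robust eBayes, arrayWeights, equal library medians, a mean value of at least 5, leaving out each pair and, added after seeing the data, leaving out genes with an alternate copy and all settings for the markers of other cell types.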

Additional observations from a re-analysis of the deposited data

Results flagged for a closer look

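Of 35 genes whose 4 pair differences were examined, 3 had 1 pair far from the other 3, and 0 of these were among the 9 genes described. About 1 in 20 groups of this size is flagged when nothing sets a sample apart. NR3C1 had a difference of -0.31 in pair 1, where the others lay between -0.20 and -0.18. EDEM1 had 0.22 in pair 3, where the others lay between 0.07 and 0.08. OTUB2 had -0.46 in pair 2, where the others lay between -0.02 and 0.06, and it shares 15.2% of its exon bases with DDX24.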

How the results depend on the processing

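Over all genes, limma with the block called 385 (297 higher, 88 lower). Without the replicate block it called 3248 (1821 and 1427), with arrayWeights 724 (503 and 221) and among genes with a mean value of at least 5 it called 144 (63 higher, 81 lower). Leaving out each pair gave 87 to 224 (79 to 156 higher, 8 to 68 lower). Lists with 0 calls gained some: without the block, other serpins 3, flanking genes 3, liver regulators 2, target proteases 1, secretory pathway 1, plasma proteins 1 and other cell types 2 (COL1A1 and KRT7). With arrayWeights, flanking genes 1 (UBR7), liver regulators 1 (NR3C1) and other cell types 1 (COL1A1) were called. Leaving out each pair gave 0 to 1 for flanking genes (UBR7) and 0 to 1 for plasma proteins (ALB), both without pair 2. The fit without the block counts mirrored values as independent. The cause of the other changes was not tested. With a pair left out, OTUB2 ranged from -0.16 to 0.016 (without pair 2) and DICER1 from -0.068 to 0.026 (without pair 4). Among all named genes outside the 9 described, 13 of 145 differences passed the threshold under another setting, 10 of them without the block. With arrayWeights SERPINA6 turned from -0.13 to 0.05 and DDX24 dropped from 0.24 to 0.05. Depth was unknown, and with 4 pairs and values shrunk by rlog the size of small differences of weakly expressed genes is uncertain, whether called or not.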
